A study of Mus musculus with 6 samples.

Results

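The genes followed here in mouse testis RNA act in KIT signalling and in the switch from undifferentiated to differentiating spermatogonia: Kit, Kitl, Sohlh1, Sohlh2, Stra8, Dmrtb1, Neurog3, Ovol1 and Lmo1. They were chosen by symbol, and all 9 had a row among the 54232 genes of the count table. The samples were testes at postnatal day 4 from mice of the strain B6D2F1, 3 with the genotype Dis3l2 WT and 3 with Dis3l2 cKO, a conditional knockout of the exoribonuclease gene Dis3l2. The labels give neither the Cre driver nor the deleted exons, and do not tell if a group's 3 samples came from separate animals, so p-values measure only the spread between these samples, which may be technical.

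KIT is a receptor tyrosine kinase on differentiating spermatogonia, and its ligand KITL is made by the Sertoli cells that surround them. Binding of KITL activates phosphoinositide 3-kinase signalling and is needed for the survival and division of KIT-positive germ cells. The change from KIT-negative to KIT-positive spermatogonia is driven by retinoic acid, which induces Stra8, and by the basic helix-loop-helix (bHLH) factors SOHLH1 and SOHLH2, which are required for KIT expression. In the first days after birth the cords of the mouse testis hold Sertoli cells and the first spermatogonia.

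The libraries held between 26126694 and 43265614 counts. The shallowest, cKO replicate 1, stood apart from its group: the chi-square per degree of freedom between its counts and those of cKO replicates 2 and 3 was 13.3 and 21.9, where it was 6.54 between those replicates, 4.20 to 7.11 between WT libraries and 17.2 to 26.2 between WT and cKO libraries. Levels are given as CPM, the usual counts-per-million scale, with library sizes scaled by TMM (trimmed mean of M-values). Changes are log2 fold changes, cKO relative to WT, from the edgeR quasi-likelihood test, and a gene was called when the adjusted p (Benjamini-Hochberg over all 20153 genes tested) was under 0.05. Dis3l2 itself was at 31.95 ± 0.93 CPM in WT and 31.72 ± 1.65 CPM in cKO (SD, n = 3 each). A count over the whole gene need not change when only some exons, or some cells, lose the gene, so it did not check the genotype labels. Markers of the labelled tissue were present, with summed levels of 6303 to 7746 CPM for 20 Sertoli cell genes, 646 to 1195 CPM for 20 general germ cell genes and 652 to 850 CPM for 9 Leydig cell genes.

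Among the 9 genes, the ligand gene Kitl and 3 of the germ cell genes (Sohlh1, Sohlh2 and Stra8) fell in the cKO testes, while the receptor gene Kit did not pass the test. Of the 8 genes tested, 4 were called lower, beside 4.94% of all genes tested, and 8.34% of all genes were called in either direction. In edgeR, 0 of the 8 were called higher, beside 3.4% of all genes. The count of higher calls was also 0 at an unadjusted p under 0.05, in DESeq2 and in limma-voom. The median log2 fold change was -0.40 over the 8 genes and 0.01 over all genes tested. All 3 WT libraries lay above all 3 cKO libraries for 5 of the 8 genes, beside 14.6% of all genes, and below them for 1, beside 13.6%. The genes had been chosen with earlier results of these data known, so these counts describe them and do not test them as a group. Each of the 8 had passed the filter on low counts in all 3 libraries of both groups. Ovol1 passed in 1 WT and 1 cKO library and was not tested. Without cKO replicate 1 the same 4 genes were called, with log2 fold changes of -0.24 for Kitl, -0.97 for Sohlh1, -0.40 for Sohlh2 and -0.92 for Stra8. The other values without it were -0.02 for Kit, 0.18 for Dmrtb1, -0.93 for Neurog3 and -0.04 for Lmo1, and none of these was called.

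**Figure D1:**
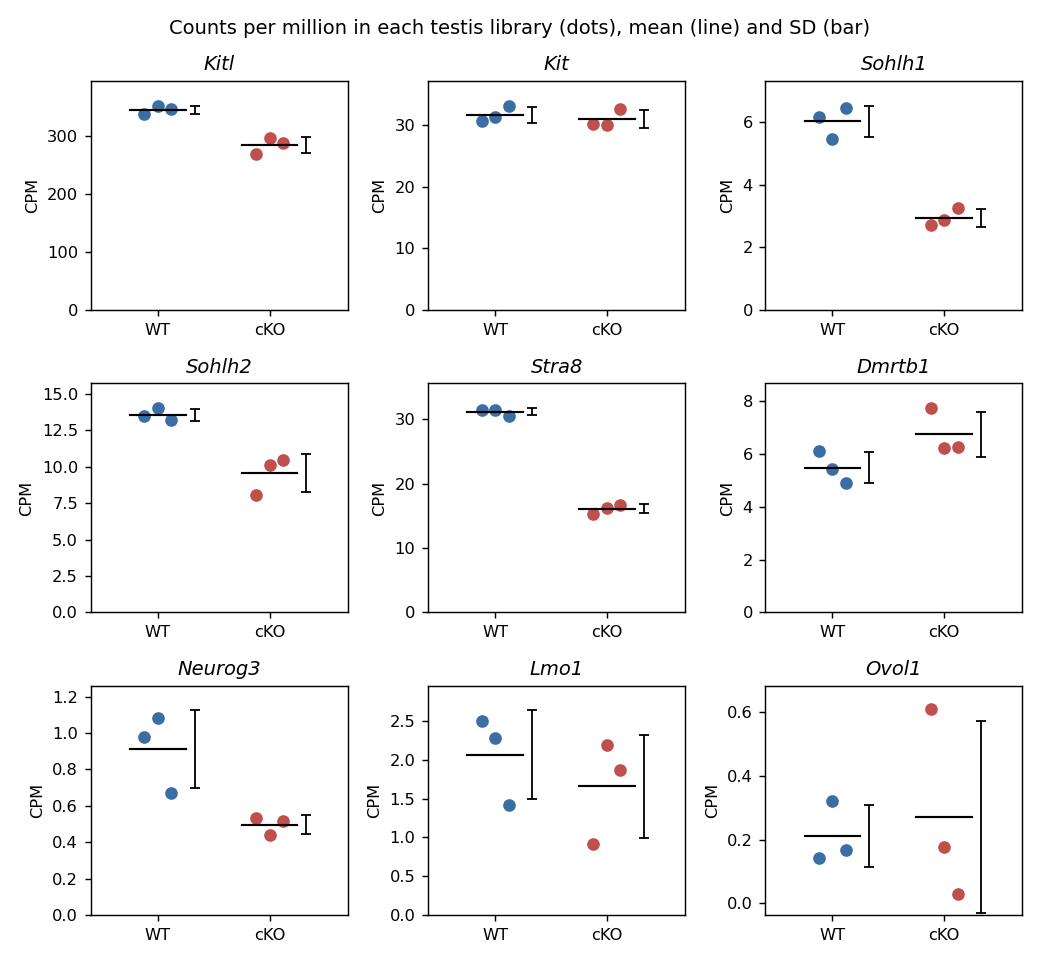
CPM (y axis, linear, 1 scale per gene) of the 9 genes in each of the 3 WT (blue) and 3 cKO (red) libraries, with the group mean as a line and the SD as a bar. The groups stood apart for Kitl, Sohlh1, Sohlh2, Stra8, Dmrtb1 and Neurog3 and overlapped for Kit, Lmo1 and Ovol1, where the SD bar of cKO reaches below 0.

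Kitl, the somatic ligand gene (chromosome 10, 100015630 to 100100416, GRCm38, plus strand), had the highest level of the 9, in CPM and per length. The WT libraries held 336, 351 and 346 CPM, and the cKO libraries 269, 296 and 287 CPM. Every cKO library lay below every WT library. Kitl fell from 344.5 ± 7.3 to 284.1 ± 13.7 CPM (SD, n = 3 each), a log2 fold change of -0.28 (SE 0.05, 95% confidence interval -0.39 to -0.17, edgeR adjusted p = 0.0059). Without WT replicate 2 the log2 fold change was -0.26 and the edgeR adjusted p 0.0578. Kitl transcripts encode a membrane-bound and a readily shed form that differ by an exon, and counts per gene do not separate these forms.

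The direction of Kitl was opposite to that of most Sertoli cell transcripts measured. Of 20 Sertoli cell genes, which did not include Kitl, 18 had fitted log2 fold changes above 0. The median was 0.26, and the 7 called genes were all higher, beside 3.4% of all genes called higher. Over all 20153 genes tested, 9736 were fitted below 0 and the median was 0.01. The count of called Sertoli cell genes was 1 without WT replicate 1, 3 without WT replicate 2 or WT replicate 3, and 2 without cKO replicate 2. It was 15 without cKO replicate 1 and 12 with no filter on low counts. Within each library, the log2 CPM of Kitl minus the mean log2 CPM of the Sertoli cell genes was 1.38, 1.42 and 1.37 in WT and 0.97, 0.94 and 0.87 in cKO. The group means were 1.39 ± 0.03 and 0.93 ± 0.05 (SD, n = 3 each). For this difference of -0.46 the two-sided exact permutation test gave p = 0.1, which no design of 3 against 3 can undercut. In bulk tissue, fewer cells of a type and less RNA per cell cannot be told apart, here or for the germ cell genes below.

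Several proteases are known to release KITL from the cell surface. Of the genes of 6 (Adam8, Adam9, Adam17, Adam19, Adam33 and Mmp9), 0 passed in edgeR (0 also at an unadjusted p under 0.05), and DESeq2 and limma-voom each called 0. With 8.34% of all genes called, so short a list need not hold a call. Without cKO replicate 1, 1 of the 6 passed. The most abundant, Adam17, was at 112.2 ± 5.4 CPM in WT and 109.5 ± 3.2 CPM in cKO, and Adam9 at 65.8 ± 2.7 and 71.3 ± 2.2 CPM (SD, n = 3 each). Over the 6 libraries, the genes whose mean-centred log2 CPM profile lay nearest to that of Kitl were the DNA ligase gene Lig1 (root mean square difference 0.015), Kctd14 (0.024) and Wdr3 (0.024), of 11328 genes at a mean of at least 5 CPM. Such a likeness over 6 libraries in 2 groups describes the group difference and the library spread only.

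The promoter windows of Kitl and Kit are shown as the ligand and receptor pair, with E-boxes (CANNTG, the letters that bHLH factors bind) in capitals. Each window runs from 250 bases before to 30 after the RefSeq start site (RefSeq, GRCm38.p6), on the gene's strand, and both strands were searched. Each held 1 E-box, downstream of the start, and neither held the retinoic acid receptor half-site AGGTCA on either strand. An E-box was present in 70.1% of the 32851 windows of this length and AGGTCA in 15.3%. The window of Kitl is chr10:100015571-100015850 and that of Kit chr5:75574737-75575016, both on the plus strand.
Kitl: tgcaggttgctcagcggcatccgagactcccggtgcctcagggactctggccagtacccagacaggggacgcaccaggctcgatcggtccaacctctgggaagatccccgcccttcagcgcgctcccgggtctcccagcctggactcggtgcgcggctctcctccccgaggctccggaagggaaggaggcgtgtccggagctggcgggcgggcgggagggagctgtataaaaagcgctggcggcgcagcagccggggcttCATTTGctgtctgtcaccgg
Kit: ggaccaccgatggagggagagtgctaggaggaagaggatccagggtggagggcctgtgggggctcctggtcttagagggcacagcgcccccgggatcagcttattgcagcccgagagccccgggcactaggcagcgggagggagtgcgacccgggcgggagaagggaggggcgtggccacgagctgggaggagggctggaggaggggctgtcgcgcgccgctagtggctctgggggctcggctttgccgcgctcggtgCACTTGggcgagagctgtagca

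Kit, the receptor gene (chromosome 5, 75574916 to 75656722, GRCm38, plus strand), had WT levels of 30.7, 31.3 and 33.2 CPM and cKO levels of 30.2, 30.1 and 32.7 CPM. The groups overlapped, the highest cKO library lying above all but 1 of the WT libraries. The means were 31.7 ± 1.3 and 31.0 ± 1.5 CPM (SD, n = 3 each). The log2 fold change was -0.03 (SE 0.07, edgeR adjusted p = 0.846). Its 95% confidence interval of -0.19 to 0.13 did not reach the values fitted for Kitl, Sohlh1, Sohlh2 or Stra8. The interval of Kitl (-0.39 to -0.17) overlapped that of Kit, so the intervals do not separate these 2 genes. Without WT replicate 3 the fitted value of Kit was 0.0015. The genes nearest to Kit in profile were Ubox5 (root mean square difference 0.018), Rc3h1 (0.021) and Fam192a (0.021), and none of the 3 was called.

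Relative to both its ligand and the mean of 20 general germ cell genes, Kit was higher in every cKO library than in any WT library. The log2 CPM of Kit minus that of Kitl averaged -3.44 ± 0.05 for WT and -3.19 ± 0.09 for cKO (SD, n = 3 each), a difference of 0.25 (exact two-sided permutation p = 0.1, adjusted p = 0.14 over 7 genes). Per length, as CPM per kilobase of gene model (RPKM), Kitl was 16.4 ± 0.6 times as abundant as Kit in WT and 13.8 ± 0.9 times in cKO (SD, n = 3 each). Kit minus the mean of 20 general germ cell genes averaged 0.07 ± 0.06 for WT and 0.79 ± 0.10 for cKO (SD, n = 3 each). This difference of 0.71 on the log2 scale had the same exact permutation p of 0.1 and adjusted p of 0.14.

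KIT is also made by Leydig cells, mast cells and melanocytes, so markers of these cells were read beside it. Of 9 Leydig cell genes, 4 were called and all were higher, beside 3.4% of all genes called higher, with a median log2 fold change of 0.33. Their summed level ranged from 652 to 662 CPM among WT and from 706 to 850 CPM among cKO libraries. The steroidogenic enzyme gene Cyp17a1 rose from 82.8 ± 3.8 to 125.8 ± 13.4 CPM and the luteinizing hormone receptor gene Lhcgr from 12.35 ± 0.36 to 20.1 ± 2.7 CPM (SD, n = 3 each; edgeR adjusted p = 0.0005 and 0.0017). Scarb1 was also called (edgeR adjusted p = 0.0488), though its groups overlapped. Its call was lost in the robust fit (0.175) and without any 1 library other than cKO replicate 1. The count of called Leydig cell genes was 3 in the robust fit and 6 without cKO replicate 1. In 1 Leydig cell gene all cKO libraries lay below all WT libraries. The summed level of 10 mast cell genes was 30.3 to 35.0 CPM in WT and 22.5 to 28.5 CPM in cKO. Of the 7 tested, 1 was called and 6 were fitted below 0, with a median log2 fold change of -0.70. At an unadjusted p under 0.05 in edgeR, 3 were lower and 0 higher. In so short a list 1 call is near the 8.34% of all genes called in either direction. DESeq2 called 3, as did the fit with no filter, and the robust fit and the fit without cKO replicate 1 called 2. The gene called in edgeR, the mast cell carboxypeptidase gene Cpa3, fell by 0.76 on the log2 scale (edgeR adjusted p = 0.0247), a call lost without WT replicate 2 (0.106), WT replicate 3 (0.111) or cKO replicate 3 (0.0540). The defining mast cell genes Fcer1a and Mrgprb2 were near 0, at no more than 0.0762 CPM in any library. Of the melanocyte genes, Tyr, Tyrp1, Mlana and Slc45a2 were too low to test. Of the 3 tested, 0 were called in edgeR, at an unadjusted p under 0.05, in DESeq2 or in limma-voom, and their list's summed level was 10.9 to 11.4 CPM in WT and 11.3 to 12.9 CPM in cKO. Mitf, also active in other cells, was at 8.39 ± 0.64 CPM in WT and 9.68 ± 0.76 CPM in cKO (SD, n = 3 each). How much of the Kit signal came from each cell type was not tested.

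Downstream of the receptor, 6 of 46 genes of KIT signalling passed the test, all lower, where 4.94% of all genes were called lower, and the median over the list was -0.02 (log2 fold change). The number was 10 without cKO replicate 1. Pik3r2, a regulatory subunit of phosphoinositide 3-kinase, fell by 0.54 on the log2 scale (edgeR adjusted p = 0.0006), with 97.5 ± 2.7 CPM in WT and 67.0 ± 6.3 CPM in cKO (SD, n = 3 each). Foxo1, which encodes a forkhead transcription factor, fell by 0.29 on the log2 scale (edgeR adjusted p = 0.0063). Without WT replicate 2 Foxo1 was not called (0.0631). The catalytic subunit genes Pik3cd (-0.48) and Pik3cb (-0.35) were also called. The more abundant subunit genes Pik3ca (-0.05) and Pik3r1 (-0.004) were not called. At an unadjusted p under 0.05 in edgeR, 8 genes of the list were lower and 4 higher.

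**Figure D2:**
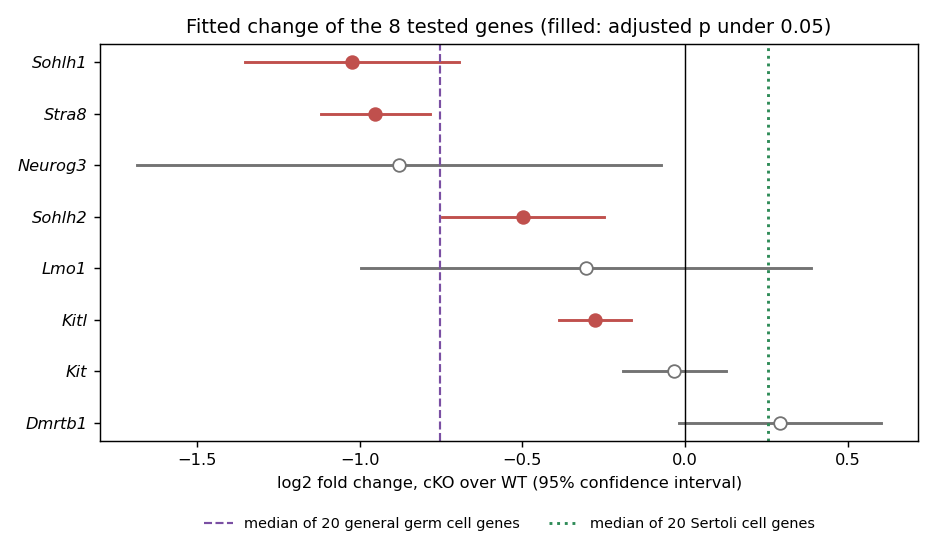
Fitted log2 fold change, cKO over WT (x axis), with its 95% confidence interval for the 8 tested genes, filled where the edgeR adjusted p was under 0.05. The dashed line is the median of the 20 general germ cell genes (-0.75) and the dotted line that of the 20 Sertoli cell genes (0.26). Sohlh1, Stra8 and Neurog3 lay left of the dashed line, and Kit and Dmrtb1 well to its right.

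Sohlh1 (chromosome 2, 25842995 to 25847248, GRCm38, minus strand) encodes a germ cell bHLH factor needed for spermatogonial differentiation. The WT libraries held 6.16, 5.46 and 6.44 CPM, the cKO libraries 2.70, 2.87 and 3.27 CPM. The groups were far apart, the lowest WT library being well above the highest cKO library. The means were 6.02 ± 0.51 and 2.95 ± 0.29 CPM (SD, n = 3 each), a log2 fold change of -1.03 (SE 0.15, edgeR adjusted p = 0.0015), which kept its call in all 15 alternative fits. Sohlh2 (chromosome 3, 55182028 to 55209957, GRCm38, plus strand), whose protein pairs with SOHLH1, had WT levels of 13.4, 14.0 and 13.2 CPM and cKO levels of 8.08, 10.1 and 10.5 CPM. Here too the groups did not overlap, and cKO replicate 1 was the lowest. Sohlh2 fell by 0.50 on the log2 scale (SE 0.11, edgeR adjusted p = 0.0189), its means being 13.5 ± 0.4 CPM for WT and 9.56 ± 1.30 CPM for cKO (SD, n = 3 each). This call was lost without WT replicate 1 (0.0752), WT replicate 2 (0.102), WT replicate 3 (0.0615) or cKO replicate 2 (0.0555).

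The window of Sohlh1 is shown because it was rich in the letters that its own protein family binds. It spans chr2:25847219-25847498 (RefSeq, GRCm38.p6, minus strand), with E-boxes and the half-site AGGTCA in capitals. It held 5 E-boxes, at positions -231, -211, -192, -134 and -70 from the start site, and the first 3 of these read CACGTG. Among the 8 windows found for these genes, this one held the most E-boxes. At least 5 E-boxes were found in 1.7% of all windows, a share for any 1 window and not for the highest of 8. CACGTG was present in 6.79%, and 26 of the 32851 windows held as many of it as Sohlh1. The count of CACGTG was taken after the sequence had been seen. The 1 AGGTCA, at -215, overlaps the second CACGTG. Of the 8 of these genes with a window, 7 held an E-box, the exception being Stra8, and 0 held CCGTTA, the letters that OVOL factors bind, which 2.56% of windows held. Such matches describe the letters and show no binding.
Sohlh1: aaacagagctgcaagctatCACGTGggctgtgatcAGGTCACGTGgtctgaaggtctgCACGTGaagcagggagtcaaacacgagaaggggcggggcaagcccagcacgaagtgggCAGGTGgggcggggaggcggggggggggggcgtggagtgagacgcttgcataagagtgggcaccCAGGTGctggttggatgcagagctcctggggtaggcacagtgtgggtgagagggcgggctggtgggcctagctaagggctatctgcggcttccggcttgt

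A further list held partners and inhibitors of bHLH factors. Of its 16 genes, which also include genes of LMO proteins and their partners, 3 were called, 2 higher and 1 lower. Over all genes 8.34% were called in either direction. The median log2 fold change of the list was 0.07. Id1 and Id3, active in many cell types, encode inhibitors that keep bHLH factors from DNA. Id1 had WT levels of 20.1, 17.8 and 19.6 CPM and cKO levels of 32.6, 32.1 and 36.1 CPM, with no overlap. It rose by 0.81 on the log2 scale (SE 0.08, edgeR adjusted p = 0.0001). Id3 had WT levels of 33.8, 39.2 and 41.4 CPM and cKO levels of 50.8, 59.6 and 64.5 CPM, also apart, and rose by 0.62 (SE 0.10, edgeR adjusted p = 0.0022). Id4, the family member known as a marker of spermatogonial stem cells, fell by 0.59 on the log2 scale (SE 0.08, edgeR adjusted p = 0.0007). The E-protein genes Tcf3 (0.06), Tcf12 (-0.09) and Tcf4 (0.14), whose products pair with tissue-restricted bHLH factors, were not called, nor was Ldb1 (-0.03), which encodes the scaffold that binds LMO proteins. Bhmg1, which encodes the partner of STRA8 also called MEIOSIN and was matched through a RefSeq synonym, averaged 2.69 ± 0.51 CPM for WT and 2.43 ± 0.21 CPM for cKO (SD, n = 3 each) and was not called.

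Stra8 (chromosome 6, 34920163 to 34939344, GRCm38, plus strand), the retinoic acid target that marks entry into differentiation and later meiosis, fell by nearly as much as Sohlh1. The WT libraries held 31.5, 31.5 and 30.5 CPM and the cKO libraries 15.3, 16.2 and 16.7 CPM, with a wide gap between the groups. The means were 31.1 ± 0.6 and 16.1 ± 0.7 CPM (SD, n = 3 each), a cKO level of 0.517 times that of WT. The log2 fold change was -0.95 (SE 0.08, 95% confidence interval -1.12 to -0.79, edgeR adjusted p = 1.7e-05) and was called in all 15 alternative fits.

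The window at the RefSeq start of Stra8 (chr6:34920698-34920977, RefSeq, GRCm38.p6, plus strand) is shown with the half-site AGGTCA in capitals. It held 2, at positions -194 and -38, and no E-box. Among the 8 windows found for these genes, this one held the most half-sites. At least 2 were found in 1.6% of all windows, a share for any 1 window and not for the highest of 8. This start lies 785 bases inside the gene model that was counted.
Stra8: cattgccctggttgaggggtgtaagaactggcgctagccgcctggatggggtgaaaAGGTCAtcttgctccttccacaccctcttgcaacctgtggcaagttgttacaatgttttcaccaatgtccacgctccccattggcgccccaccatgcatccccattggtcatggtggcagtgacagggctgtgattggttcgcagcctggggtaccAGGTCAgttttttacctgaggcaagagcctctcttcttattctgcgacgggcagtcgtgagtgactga

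Of 18 genes of retinoic acid supply and reception tested, 1 was called, a share near the 8.34% of all genes called in either direction, and the list median was 0.08. The called gene was Crabp1, which encodes a cytoplasmic retinoic acid binding protein found in spermatogonia, and it fell by 0.74 on the log2 scale (edgeR adjusted p = 0.007), from 8.31 ± 1.07 CPM to 4.98 ± 0.49 CPM (SD, n = 3 each). The count was 0 without WT replicate 2, where Crabp1 had an adjusted p of 0.0529, 2 without WT replicate 1 and 4 without cKO replicate 1. With no filter on low counts it was 3. The synthesis enzyme gene Aldh1a1 averaged 666.7 ± 21.7 CPM for WT and 665.2 ± 41.5 CPM for cKO, and the degrading enzyme gene Cyp26b1 148.3 ± 11.01 and 164.9 ± 21.4 CPM (SD, n = 3 each). Rarg, the retinoic acid receptor gene of spermatogonia, had a log2 fold change of 0.04 and was not called.

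Dmrtb1 (chromosome 4, 107676290 to 107684230, GRCm38, minus strand), also called Dmrt6, encodes a DM domain factor that acts in the passage from mitotic spermatogonia to meiosis. It was the 1 gene of the 8 whose cKO libraries all lay above the WT libraries. The WT libraries held 6.09, 5.43 and 4.91 CPM and the cKO libraries 7.73, 6.23 and 6.25 CPM, and the highest WT and lowest cKO libraries almost touched. The means were 5.48 ± 0.59 and 6.74 ± 0.86 CPM (SD, n = 3 each). The log2 fold change of 0.29 (SE 0.14, 95% confidence interval -0.02 to 0.60, edgeR adjusted p = 0.248) was not called in edgeR, nor in any of the 15 alternative fits.

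The remaining 3 genes were low. Neurog3 (chromosome 10, 62133090 to 62134763, GRCm38, plus strand), a bHLH gene of undifferentiated spermatogonia that are primed to differentiate, had 41, 47 and 24 counts in WT and 14, 15 and 18 in cKO. In CPM this gave 0.98, 1.08 and 0.67 for WT and 0.53, 0.44 and 0.52 for cKO, without overlap. The log2 fold change was -0.88 (SE 0.37, 95% confidence interval -1.68 to -0.07), with an unadjusted p of 0.035 and an edgeR adjusted p of 0.177, so it was not called. Neurog3 lies within Fam241b on the opposite strand, and the counting used strand. Fam241b had more counts, at 177, 152 and 113 in WT and 56, 94 and 80 in cKO. If any of its reads were assigned to Neurog3 was not tested. Lmo1 (chromosome 7, 109138572 to 109175207, GRCm38, minus strand) encodes a LIM-only adaptor protein, known as a T cell leukaemia oncogene. Its WT levels of 2.50, 2.28 and 1.42 CPM and cKO levels of 0.91, 2.19 and 1.86 CPM overlapped, with cKO replicate 1 lowest. The log2 fold change was -0.31 (SE 0.32, 95% confidence interval -1.0 to 0.39, edgeR adjusted p = 0.629). It ranged from -0.55 without cKO replicate 2 to -0.04 without cKO replicate 1. Ovol1 (chromosome 19, 5549137 to 5560575, GRCm38, minus strand), a zinc finger factor of epithelia and germ cells, had 6, 14 and 6 counts in WT and 16, 6 and 1 in cKO. Fitted without a filter on low counts it had a log2 fold change of 0.28 with a 95% confidence interval of -1.31 to 1.87, so no difference was detectable at this depth.

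The germ cell genes were then set against the mean log2 CPM of 20 general germ cell genes in the same library. This mean is called the germ cell level. Of these 20 genes, 16 were called, all lower, beside 4.94% of all genes, with a median log2 fold change of -0.75. The level depends on the genes listed. The median was -0.42 over 14 further genes of spermatogonial differentiation and -0.22 over 19 genes of undifferentiated spermatogonia. Sohlh1, Sohlh2 and Stra8 were fitted below both of these medians, and Kit and Dmrtb1 above both. The RNA helicase gene Ddx4 fell from 110.1 ± 5.2 to 53.2 ± 2.6 CPM and Dazl, an RNA-binding factor of germ cells, from 329.8 ± 13.6 to 195.3 ± 13.1 CPM (SD, n = 3 each; edgeR adjusted p = 9.7e-07 and 1.3e-05). Relative to the mean of the 20, Stra8 averaged 0.05 ± 0.05 for WT and -0.16 ± 0.05 for cKO, and Sohlh1 -2.32 ± 0.15 and -2.59 ± 0.09 (log2 scale, SD, n = 3 each). The differences were -0.20 for Stra8 and -0.27 for Sohlh1. Sohlh2 lay on the other side, with a difference of 0.24, and so did Kit (0.71) and Dmrtb1 (1.04). For none of these 5 genes did the groups overlap in this measure, though the lowest WT value of Sohlh1 (-2.49) was only just above its highest cKO value (-2.50). For each of the 5 the exact permutation p was 0.1, the smallest possible, and the adjusted p 0.14 over 7 genes. Neurog3 differed by -0.04 (exact permutation p = 0.9) and Lmo1 by 0.39 (exact permutation p = 0.4), or 0.70 without cKO replicate 1.

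**Figure D3:**
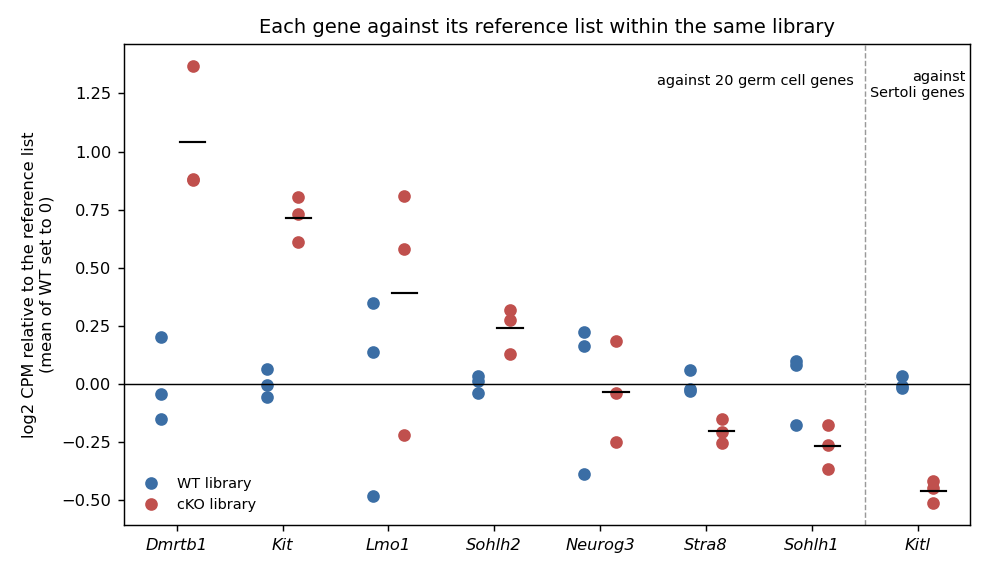
Log2 CPM of each gene minus the mean log2 CPM of its reference list in the same library (y axis, mean of WT set to 0), for WT (blue) and cKO (red) libraries, with the cKO mean as a line. Measured against the germ cell genes, the cKO mean differed from the WT mean by 1.04 for Dmrtb1, 0.71 for Kit, -0.20 for Stra8 and -0.27 for Sohlh1. Against the Sertoli cell genes, that of Kitl differed by -0.46.

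The ligand and the germ cell genes were also compared directly, as the log2 CPM of each gene minus that of Kitl. Stra8 averaged -3.46 ± 0.04 for WT and -4.14 ± 0.05 for cKO (SD, n = 3 each), a difference of -0.67, and Sohlh1 differed by -0.74. Both were thus further below WT than Kitl was. The difference was smaller for Sohlh2 (-0.23, and -0.15 without cKO replicate 1) and of the opposite sign for Dmrtb1 (0.57), as for Kit. The exact two-sided permutation p was 0.1 for each of these, adjusted to 0.14 over the 7 genes. Neurog3 (-0.51, exact permutation p = 0.2) and Lmo1 (-0.08, exact permutation p = 0.8) were less clear, and Lmo1 changed sign without WT replicate 1 or cKO replicate 1.

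Per length, the order of the 9 genes in WT was Kitl, Stra8, Sohlh2, Sohlh1, Kit, Dmrtb1, Lmo1, Neurog3 and Ovol1. The mean levels were 58.3 ± 1.2 RPKM for Kitl, 17.3 ± 0.3 for Stra8, 5.73 ± 0.18 for Sohlh2, 4.67 ± 0.39 for Sohlh1, 3.56 ± 0.15 for Kit and 2.63 ± 0.28 for Dmrtb1 (SD, n = 3). The ranges of neighbours in this order did not overlap in WT. In cKO, Sohlh1 at 2.29 ± 0.23 RPKM stood below Kit (3.48 ± 0.17) and Dmrtb1 (3.23 ± 0.41), and the ranges of Sohlh2 (4.04 ± 0.55), Kit and Dmrtb1 met (SD, n = 3). Kit thus ranked above Sohlh1 in cKO and below it in WT.

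Of 14 further genes of spermatogonial differentiation, 8 were called, all lower, beside 4.94% of all genes, and 6 did not pass. The median log2 fold change was -0.42. Without WT replicate 2 the count was 5. The X-linked homeobox gene Rhox10 fell by 1.44 on the log2 scale, Taf4b, which encodes a germ cell subunit of the TFIID complex, by 0.59, the zinc finger gene Sall4 by 0.48 and Tex14, needed for the bridges between germ cells, by 0.45 (edgeR adjusted p = 0.0006, 0.0022, 0.0017 and 0.0019).

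Of 19 genes of undifferentiated spermatogonia tested, 6 were called lower and 1 higher, with a median of -0.22. The stem cell factor gene Zbtb16 fell by 0.80 on the log2 scale, the forkhead gene Foxc2 by 0.81 and the GDNF receptor gene Ret by 0.82. The member called higher was Pax7 (0.83), named after its values were seen. Of 10 genes of epithelial ducts, where Ovol1 is also active, 4 were called, all lower, beside 4.94% of all genes. They were the splicing factor gene Esrp1 (-0.69), the adhesion gene Epcam (-0.45), the OVOL1 relative Ovol2 (-0.94) and the keratin gene Krt7 (-1.47). The call of Krt7 was lost without WT replicate 1, WT replicate 2, WT replicate 3 or cKO replicate 2. Esrp1 and Epcam are also made by spermatogonia. In edgeR, 4 of 9 macrophage, 1 of 10 endothelial and 0 of 7 peritubular myoid genes were called, those called being higher. Over all genes 3.4% were called higher and 8.34% in either direction, and the endothelial and myoid counts were near these shares. The macrophage count was 0 without WT replicate 2, 1 without WT replicate 1, WT replicate 3 or cKO replicate 2, and 2 without cKO replicate 3. The endothelial count was 0 without WT replicate 2 and 3 without cKO replicate 1. Of the myoid genes, 1 was higher and 1 lower at an unadjusted p under 0.05. DESeq2 and limma-voom called 0 of them, the fit without cKO replicate 1 called 4 and that with no filter 3.

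**Figure D4:**
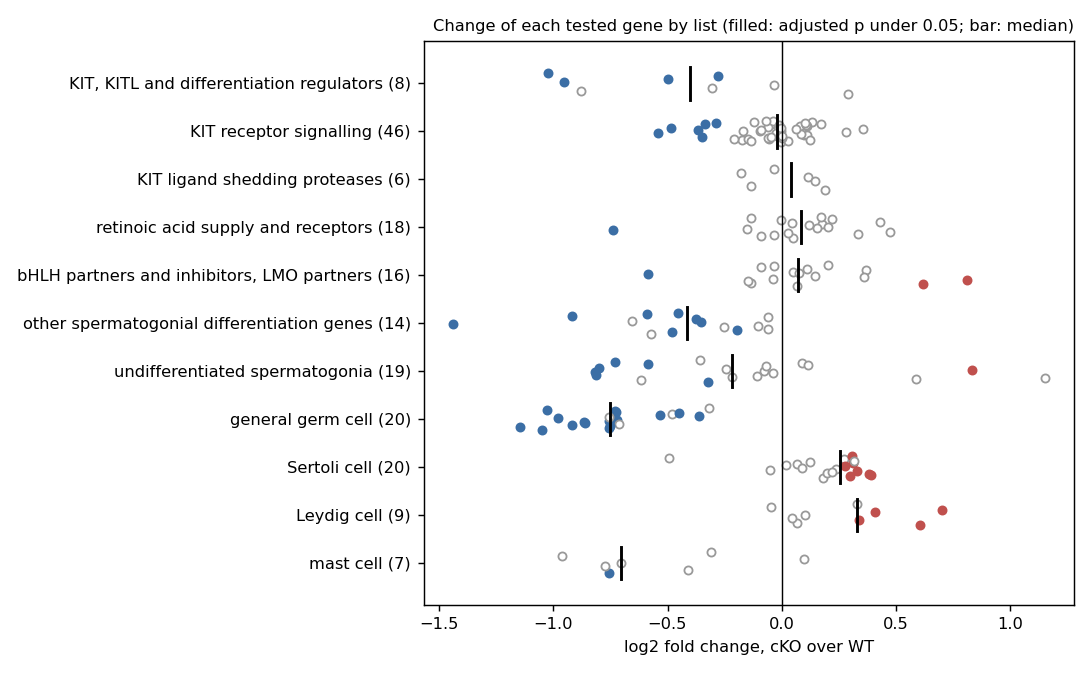
Log2 fold change, cKO over WT (x axis), of each tested gene by list, with the number of genes in brackets, filled blue where called lower, filled red where called higher and open where not called, and the list's median as a bar. The median was -0.02 for KIT receptor signalling and 0.08 for retinoic acid genes, and -0.42, -0.22 and -0.75 for the 3 lists of germ cell genes below them.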

How the data were processed

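RNA of 6 testis samples (3 WT, 3 cKO) was made into stranded libraries with random and poly(T) priming and depletion of chosen transcripts, per the labels' protocols. The molecule field names polyA RNA, which differs from this. The authors deposited raw counts of reads per gene, made with featureCounts 1.6.4 on GENCODE M18 gene models (strand-specific, reads with several positions or genes not counted), per the file headers. Per the submitters' processing notes, cutadapt, HISAT2 and the build GRCm38.p5 were used, with versions not given in the sources used here. Symbols came from GENCODE M21 (54165 of 54232 genes), and 0 columns lacked a sample.

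Counts were filtered with filterByExpr (minimum count 10, minimum total 15), scaled by TMM and fitted in edgeR 4.0.16 (R 4.3.3) with group as the only term. The fit was tested on simulated data. Within-library differences used log2 CPM with a prior count of 2 and exact two-sided permutation tests (scipy 1.17.1). The 9 genes and the 15 gene lists were chosen with earlier results of these data known. Genes named are the 9, Dis3l2, up to 4 called genes with the lowest p per list (for lists without a call, 2 of the most abundant), and 3 genes nearest in profile to Kit and to Kitl. Other genes, such as Pik3cd or Aldh1a1, were named as examples after their values were seen, and some genes that the rule selects are not reported here. Alternatives were other scalings and filters, DESeq2 1.42.0, limma-voom (limma 3.58.1), a robust fit, a replicate block, single libraries left out, abundant and small RNA genes left out, a prior count of 0.5 and list medians. Promoter windows are from RefSeq (GRCm38.p6), 1 per gene, at the start nearest to that of the counted model.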

Additional observations from a re-analysis of the deposited data

How the results depend on the processing

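The called genes among the 9 kept their direction in every alternative run. Log2 fold changes with 1 library left out ranged from -0.31 to -0.24 for Kitl, from -1.11 to -0.97 for Sohlh1, from -0.57 to -0.40 for Sohlh2, from -0.99 to -0.92 for Stra8, and from -0.077 to 0.0015 for Kit. Kitl and Sohlh2 lost their calls only when the libraries named above were left out. The number of called genes was 1681 in all libraries and ranged from 623 (without WT replicate 2) to 3375 (without cKO replicate 1). With 1 library left out, Neurog3 minus the germ cell level ranged from -0.23 to 0.078, Lmo1 minus Kitl from -0.32 to 0.25, Dis3l2 from -0.058 to 0.013 and Ubox5 from -0.065 to 0.014, so that these signs were not settled, and the cause was not tested. The filter of at least 1 CPM in 3 samples gave no value for Neurog3. Labels number the samples of both groups. Deviations of same-numbered samples correlated at 0.031, 0.013 and 0.065, each the highest value for its cKO library. WT replicate 2, however, correlated more with cKO replicate 1 (0.023). Values so near 0 do not settle if the numbers pair the samples, and the main fit did not use them. With a replicate block 1798 genes were called, Kitl had a log2 fold change of -0.28 (edgeR adjusted p = 0.0045) and Sohlh2 of -0.51 (0.021), and no call among the 9 changed. The block gave 2 calls in place of 1 among the retinoic acid genes and among the mast cell genes. Medians of the gene lists moved by more than the library spread in 9 of 225 alternative values. Ovol1, Neurog3 and Lmo1 had between 1 and 105 counts in a library, and how much of their spread is counting error was not tested.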
